A study of Mus musculus with 24 samples.

Results

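The data described here are the RNA levels of 46 mouse genes that encode chromatin modifiers and remodellers, out of 29759 genes in the deposited expression tables. The 46 were taken from a list of names and matched to the tables through their Ensembl identifiers, and all 46 were found. They fall into 9 sets by role, which are Polycomb proteins, the Kmt2 and Setd1 histone methyltransferases, other histone methyltransferases, histone demethylases, acetyltransferases with deacetylases, Chd remodellers, BAF subunits, other remodelling ATPases, and cohesin with Ctcf. The rule uses gene names and no measured value, though the list was chosen with earlier results of these data known.

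RNA was sequenced from epiblast-like cells (EpiLC) and from naive embryonic stem cells (nESC) of the mouse line E14, an established embryonic stem cell line. EpiLC had spent 3 days in activin A (20 ng/ml) plus bFGF (12 ng/ml), and nESC were kept in N2B27 medium with LIF and the inhibitors PD0325901 and CHIR99021 (2i). From each state the RNA bound to chromatin, the RNA of the nucleoplasm, the RNA of the cytoplasm and the RNA of whole cells (total) were sequenced after removal of ribosomal RNA, in 3 libraries for each of the 8 groups. All groups come from this single line, and the labels name no altered gene. The labels do not say whether the 3 libraries of a group came from separate cultures, so p-values measure only the spread between these libraries.

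Polycomb repressive complex 2 places methyl groups on lysine 27 of histone H3, and Polycomb repressive complex 1 ubiquitylates histone H2A; both keep developmental genes silent in embryonic stem cells. Kmt2 and Setd1 enzymes methylate lysine 4 of histone H3 at promoters and enhancers, and Chd, BAF, ISWI and INO80 enzymes use ATP to move or exchange nucleosomes. Cohesin rings extrude loops of DNA that are halted at sites bound by Ctcf. RNA polymerase makes a transcript on chromatin, from where the finished message passes through the nucleoplasm to the cytoplasm, so the 3 fractions sample a message at different stages of its life.

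Expression was given as FPKM, a fragment count scaled for transcript length and for library size. How the libraries were normalized against each other was not given in the sources used here. The sum of FPKM over all genes was 432706 to 504959 in the chromatin libraries, 749514 to 823865 in the nucleoplasm libraries, 1555120 to 1980220 in the cytoplasm libraries and 811018 to 982175 in the total libraries. The steps between low values put 1 FPKM of a 2 kb transcript at an estimated 29.2 to 45.4 fragments in chromatin, 64.1 to 87.6 in nucleoplasm, 22.8 to 41.9 in cytoplasm and 60.7 to 80.2 in total RNA. Marker RNAs followed the fraction labels: 5 nuclear noncoding RNAs summed to 4181 to 6249 FPKM in EpiLC chromatin, against 210 to 391 FPKM in EpiLC cytoplasm, and to 4833 to 5938 FPKM in nESC chromatin, against 188 to 202 FPKM in nESC cytoplasm. One exception was Malat1, listed at 0 in the nESC nucleoplasm library numbered 3, while none of the 46 genes had such an isolated 0. The 6 naive pluripotency markers summed to 33.4 to 81.3 FPKM in EpiLC libraries, against 548 to 907 FPKM in nESC libraries. The 4 primitive endoderm markers summed to at most 3.79 FPKM in any library, the 4 fibroblast markers to at most 15.1 FPKM in EpiLC against 7.63 FPKM in nESC, and the 4 markers of mesoderm and neural cells to at most 3.42 FPKM in EpiLC against 19.0 FPKM in nESC. The 4 markers of 2-cell-like cells reached 5.33 FPKM in EpiLC and 23.8 FPKM in nESC. Replicate libraries correlated across genes with r of at least 0.955, the lowest value being among the EpiLC chromatin libraries.

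Most of the 46 messages were more abundant on chromatin than in the cytoplasm. In EpiLC 26 of 46 were higher in chromatin at least 2-fold with an adjusted p below 0.05 (limma, adjusted over all genes tested), a rule met by 29.1% of the 12834 genes tested, and 5 were lower, against 28.4% of genes. In nESC 30 of 45 were higher, against 31.8% of 12592 genes, and 3 were lower, against 29.7%; Setd1b averaged under 1 FPKM there and was not tested. The median log2 fold of chromatin over cytoplasm was 1.24 in EpiLC and 2.11 in nESC for the listed genes, against -0.00 and 0.04 over all genes tested. In bulk RNA of this kind fewer cells of a type and less RNA per cell cannot be told apart. Between them the 2 states shared 24 genes called higher (Suz12, Mtf2, Kmt2a, Kmt2b, Kmt2c, Kmt2d, Setd2, Kdm5a, Kdm6a, Ep300, Crebbp, Chd1, Chd2, Chd4, Chd7, Chd8, Chd9, Arid1a, Smarca5, Atrx, Ino80, Smc1a, Smc3 and Stag2) and 3 called lower (Ring1, Hdac1 and Smarcb1), and no gene was called in opposite directions. Libraries of the 2 fractions did not overlap for 40 of 46 genes in EpiLC, against 82.7% of genes tested, and for 42 of 45 in nESC, against 85.9%. Setd1b was called higher in EpiLC and not tested in nESC. Its nESC chromatin libraries, at 2.39, 1.99 and 1.99 FPKM, lay above its nESC cytoplasm libraries, at 0.286, 0.714 and 0.174 FPKM. Arid1b was called higher in EpiLC alone, Ehmt2 and Smarca4 lower in EpiLC alone, and Ezh2, Jarid2, Setd1a, Kdm5b, Chd3 and Smarcc1 higher in nESC alone. Calls in 1 state alone are no test of a difference between the states. The remaining 9 genes, Eed, Rnf2, Kdm2b, Setdb1, Ehmt1, Kdm1a, Hdac2, Ctcf and Rad21, were called in neither state.

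The scale of the libraries bears on these counts. When every library was scaled to the same FPKM sum, 40 of 46 genes were higher and 0 lower in EpiLC chromatin, against 65.4% and 5.16% of all genes, and 42 of 45 were higher and 0 lower in nESC chromatin, against 66.8% and 5.96%. The median of all genes then stood at 1.69 in EpiLC and 1.85 in nESC. Relative to those medians the listed genes kept a positive offset, with their own medians at 2.98 in EpiLC and 3.98 in nESC. Of the 5 genes called lower in EpiLC, Ring1, Ehmt2, Hdac1 and Smarca4 then had positive folds of 0.58, 0.64, 0.26 and 0.73, and of the 3 called lower in nESC, Ring1 and Hdac1 had 0.43 and 0.93. Smarcb1 kept a negative fold under this scaling, at -0.92 in EpiLC and -0.72 in nESC, short of 2-fold.

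**Figure D1:**
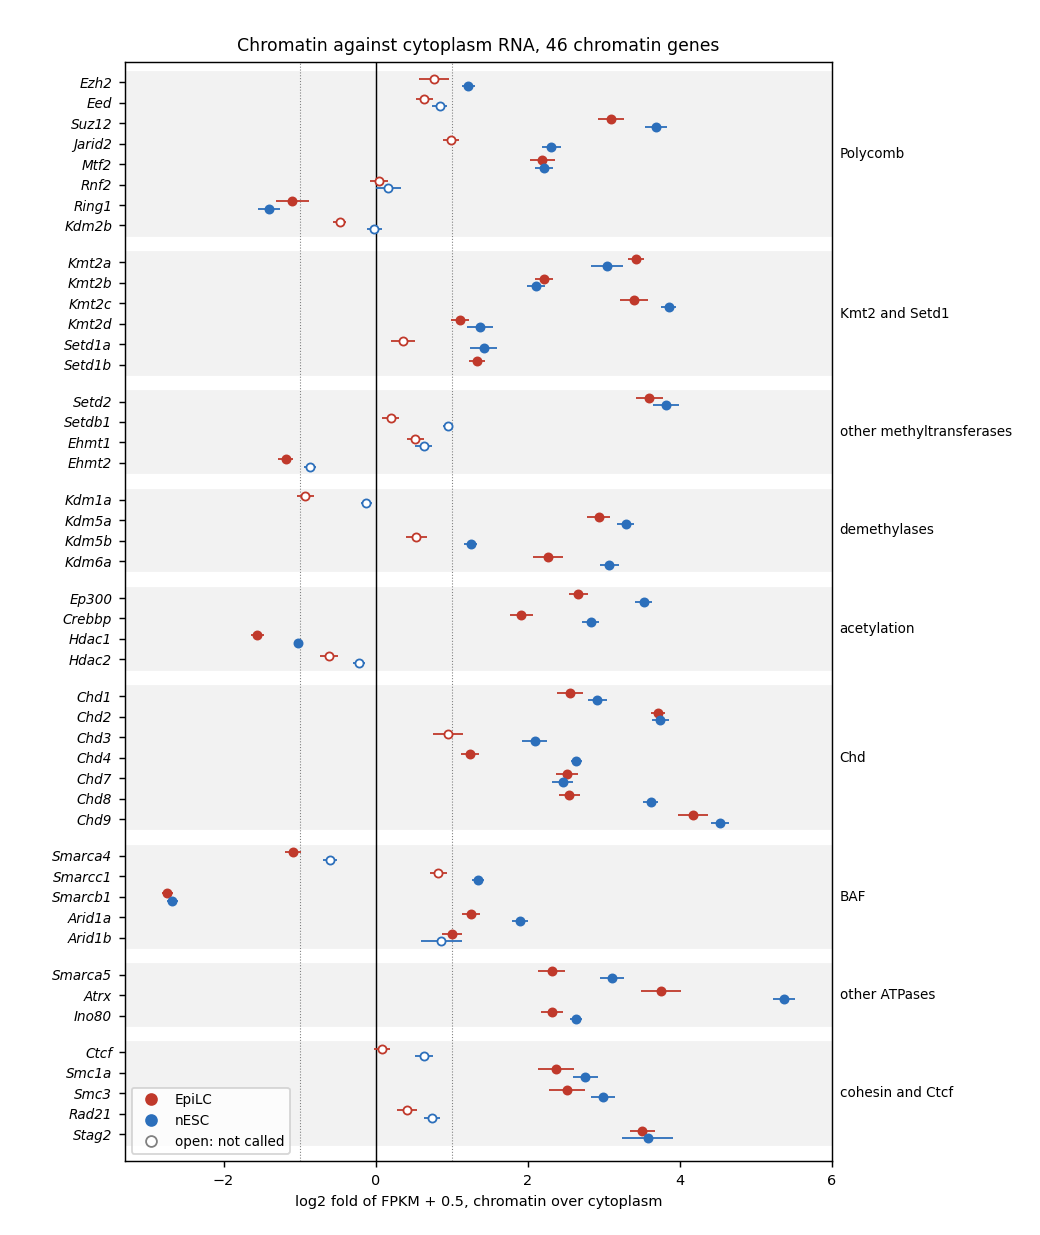
The log2 fold of FPKM + 0.5 in chromatin over cytoplasm for each of the 46 genes, with EpiLC in red above nESC in blue, bars of 1 standard error, and open circles for genes not called. The Chd set lies wholly to the right of 0 in both states, and Smarcb1 stands farthest to the left at -2.74 in EpiLC and -2.68 in nESC. Ring1, Ehmt2, Hdac1 and Smarca4 move to the right of 0 when libraries are scaled to the same sum.

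The nucleoplasm gave similar counts against the same cytoplasm libraries. In EpiLC 27 of 46 genes were higher in the nucleoplasm, against 20.1% of genes tested, and 2 were lower, against 19.1%. In nESC 27 of 45 were higher, against 20.5%, and 4 were lower, against 19.5%. Libraries did not overlap for 43 of 46 genes in EpiLC, against 81.2% of genes, and for 41 of 45 in nESC, against 84.9%. Both comparisons share the cytoplasm libraries with those of chromatin, so their values are given side by side below and not as separate support. With libraries scaled to the same sum, 40 of 46 genes were higher and 0 lower in EpiLC nucleoplasm, against 40.0% and 1.71% of all genes, and 41 of 45 were higher and 0 lower in nESC nucleoplasm, against 48.9% and 1.02%. The median of all genes then stood at 0.71 in EpiLC and 0.98 in nESC.

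By mean level, 24 of 46 genes had their highest fraction in EpiLC chromatin, 18 in EpiLC nucleoplasm and 4 in EpiLC cytoplasm (Ring1, Ehmt2, Hdac1 and Smarcb1), where 36.6%, 20.9% and 42.4% of all genes tested did. In nESC 32 of 45 were highest in chromatin, 7 in nucleoplasm and 6 in cytoplasm (Ring1, Kdm2b, Ehmt2, Kdm1a, Hdac1 and Smarcb1), where 41.4%, 16.5% and 42.1% of genes did. These shares hold for the deposited scaling. Under scaling to the same sum 37 of 46 genes were highest in chromatin, 9 in nucleoplasm and 0 in cytoplasm in EpiLC, where 73.0%, 16.0% and 10.99% of all genes were, and 41 of 45, 3 and 1 in nESC, where 72.0%, 19.3% and 8.74% were.

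The promoters of 36 of the 46 genes are held in the RefSeq table for GRCm38.p6, at 45 start sites. The 250 bases before those starts had a median of 23 CpG and 67.6% G and C, against 6 CpG and 52.4% over 32851 starts of all genes. The letters CCAAT, searched on both strands, were found at 13 of the 45 starts (28.9%), against 33.8% of all starts. All 45 held at least 1 CpG, as did 92.1% of all starts. The promoters of Atrx, whose fold between chromatin and cytoplasm in nESC exceeded that of the other listed genes, and of Ehmt1, which was higher in EpiLC in all 4 kinds of RNA, are shown for their unlike base composition. Atrx at chrX:105929373-105929622 on the minus strand had 6 CpG and 3 CCAAT matches. Ehmt1 at chr2:24919610-24919859 on the minus strand had 26 CpG and no CCAAT match. Capitals mark CCAAT.
Atrx: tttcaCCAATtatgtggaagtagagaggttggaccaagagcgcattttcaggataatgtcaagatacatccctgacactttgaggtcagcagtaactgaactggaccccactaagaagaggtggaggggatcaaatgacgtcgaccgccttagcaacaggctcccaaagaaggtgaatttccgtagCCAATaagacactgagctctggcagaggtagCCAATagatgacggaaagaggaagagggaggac
Ehmt1: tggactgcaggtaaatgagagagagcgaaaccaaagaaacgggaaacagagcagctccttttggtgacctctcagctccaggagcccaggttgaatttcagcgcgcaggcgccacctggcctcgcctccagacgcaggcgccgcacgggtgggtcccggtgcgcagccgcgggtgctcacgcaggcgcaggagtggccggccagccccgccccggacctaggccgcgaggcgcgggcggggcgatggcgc

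Among the Polycomb genes the core subunits of a single complex lay far apart. Suz12, the scaffold subunit of Polycomb repressive complex 2, had 73.4, 62.9 and 54.1 FPKM in EpiLC chromatin and 51.7, 50.1 and 53.2 in EpiLC nucleoplasm, against 5.48, 6.32 and 9.61 in EpiLC cytoplasm. In nESC it had 83.6, 102 and 116 FPKM in chromatin and 62.2, 62.3 and 67.0 in nucleoplasm, against 5.56, 8.63 and 7.93 in cytoplasm. All nuclear libraries of Suz12 lay above all cytoplasm libraries, with a log2 fold of chromatin over cytoplasm of 3.09 ± 0.17 in EpiLC (SE, adjusted p = 2.74e-09, limma) and 3.69 ± 0.14 in nESC (adjusted p = 3.36e-11). Ezh2, the methyltransferase of the same complex, gave 0.77 ± 0.20 in EpiLC, below the fold threshold, and 1.22 ± 0.09 in nESC. Eed, which binds the methylated histone tail, gave 0.64 ± 0.11 in EpiLC and 0.84 ± 0.10 in nESC, below 2-fold in both.

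Of the accessory subunits, Mtf2, which brings the complex to CpG islands, was higher in chromatin than in cytoplasm in both states, by 2.19 in EpiLC and 2.21 in nESC on the log2 scale. Jarid2, another accessory subunit, gave 0.99 in EpiLC, just short of 2-fold, and 2.31 in nESC. Without EpiLC chromatin library 3, Jarid2 at 1.08 and Ezh2 at 1.03 were called in EpiLC too, and without EpiLC cytoplasm library 3 Jarid2 was called at 1.05. In Polycomb repressive complex 1 the catalytic paralogs Rnf2 and Ring1 differed. Ring1 had 2.50, 3.66 and 4.82 FPKM in EpiLC chromatin and 3.16, 2.77 and 2.65 in EpiLC nucleoplasm, against 11.5, 7.29 and 6.43 in EpiLC cytoplasm. Levels in nESC were 5.01, 4.54 and 2.95 FPKM in chromatin and 3.91, 4.44 and 4.53 in nucleoplasm, against 11.6, 11.4 and 11.8 in cytoplasm. Its cytoplasm libraries were the highest in each state, and the fold of chromatin over cytoplasm was -1.10 ± 0.22 in EpiLC (adjusted p = 0.000475) and -1.40 ± 0.15 in nESC (adjusted p = 9.58e-07). The EpiLC call was lost without chromatin library 1, at -0.88, and without cytoplasm library 1, at -0.86. Rnf2 gave 0.05 in EpiLC and 0.17 in nESC, both uncalled, but was higher in nucleoplasm than in cytoplasm by 1.15 in EpiLC and 1.08 in nESC, where the call was lost without cytoplasm library 1, at 0.91. Kdm2b, which recruits a variant of this complex to unmethylated CpG islands, gave -0.47 in EpiLC and -0.02 in nESC. In all, 2 of 8 Polycomb genes (25%) were higher in EpiLC chromatin, against 29.1% of all genes, and 1 was lower, against 28.4%. The share higher in EpiLC was thus no larger than that of all genes, and the median was 0.70. In nESC chromatin 4 were higher, against 31.8%, and 1 was lower, against 29.7%, with a median of 1.03.

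Of the Kmt2 and Setd1 genes 5 of 6 were called higher in EpiLC chromatin, against 29.1% of all genes, with a median of 1.77. In nESC 5 of 5 tested were, against 31.8%, with a median of 2.11. After correction for exonic length and base composition 3 of 6 were called in EpiLC (Kmt2a, Kmt2b and Kmt2c), against 23.2% of all genes. In nESC 4 of 5 then were, against 25.8%. Kmt2a, the mouse counterpart of the MLL1 enzyme rearranged in human leukaemia, had 32.9, 28.7 and 27.8 FPKM in EpiLC chromatin and 12.1, 13.1 and 13.3 in EpiLC nucleoplasm, against 2.44, 1.96 and 2.56 in EpiLC cytoplasm. The 3 fractions did not overlap and descended in that order, and the fold of chromatin over cytoplasm was 3.43 ± 0.11 (adjusted p = 6.80e-11). Kmt2c, which methylates histone H3 at enhancers, had 28.9, 29.9 and 32.3 FPKM in nESC chromatin and 12.5, 12.1 and 14.0 in nESC nucleoplasm, against 1.56, 1.70 and 1.65 in nESC cytoplasm. The same descent without overlap held for it, with a fold of 3.85 ± 0.10 (adjusted p = 9.70e-13). Its close relative Kmt2d gave 1.11 ± 0.12 in EpiLC and 1.37 ± 0.17 in nESC, both called, though without EpiLC chromatin library 2 it gave 1.00 and lost the call, and after the correction for length and base composition it turned to -0.18 in EpiLC and -0.13 in nESC. The log2 ratio of Kmt2c to Kmt2d was larger in chromatin than in cytoplasm by 2.29 in EpiLC and 2.48 in nESC, and the libraries of the 2 fractions did not overlap in that ratio.

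The ratio of Kmt2a to Kmt2b was likewise larger in chromatin, by 1.22 in EpiLC and 0.93 in nESC on the log2 scale. Kmt2b, which acts at bivalent promoters, gave 2.21 ± 0.12 in EpiLC and 2.11 ± 0.11 in nESC. Setd1a and Setd1b are the catalytic subunits of the Set1 complexes. Setd1b, the lowest of the listed genes in several groups, had 5.67, 5.84 and 5.21 FPKM in EpiLC chromatin and 1.47, 1.58 and 1.44 in EpiLC nucleoplasm, against 2.05, 1.84 and 1.84 in EpiLC cytoplasm. Unlike the pattern of Kmt2a, its nucleoplasm was the lowest fraction, and its fold of chromatin over nucleoplasm of 1.61 ± 0.10 (adjusted p = 5.11e-08) exceeded that of chromatin over cytoplasm, 1.33 ± 0.10. Setd1a gave 0.36 ± 0.16 in EpiLC, uncalled, and 1.42 ± 0.18 in nESC.

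The other histone methyltransferases did not move together. Setd2, which methylates lysine 36 of histone H3 behind elongating polymerase, had 69.0, 50.2 and 37.8 FPKM in EpiLC chromatin and 64.4, 72.8 and 53.7 in EpiLC nucleoplasm, against 3.78, 3.57 and 3.86 in EpiLC cytoplasm. In nESC it had 31.3, 43.2 and 57.7 FPKM in chromatin and 32.5, 36.1 and 31.4 in nucleoplasm, against 2.85, 2.53 and 2.32 in cytoplasm. The 2 nuclear fractions overlapped while the cytoplasm stood apart, and the fold of chromatin over cytoplasm was 3.60 ± 0.18 in EpiLC (adjusted p = 1.31e-09) and 3.82 ± 0.17 in nESC (adjusted p = 1.50e-10). Ehmt2 (G9a) and Ehmt1 (GLP), which act as a dimer on lysine 9 of histone H3, lay on either side of 0. Ehmt2 had 32.1, 36.7 and 36.5 FPKM in EpiLC chromatin and 34.6, 35.3 and 42.2 in EpiLC nucleoplasm, against 79.5, 86.7 and 75.2 in EpiLC cytoplasm. Its cytoplasm libraries were the highest, with a fold of chromatin over cytoplasm of -1.19 ± 0.10 (adjusted p = 1.35e-07) in EpiLC and -0.87 ± 0.08, below the fold threshold, in nESC. Ehmt1 gave 0.52 in EpiLC and 0.63 in nESC, neither called, so that the log2 ratio of Ehmt1 to Ehmt2 was larger in chromatin than in cytoplasm by 1.71 in EpiLC and 1.50 in nESC. Setdb1, which methylates lysine 9 at retroelements, gave 0.19 in EpiLC and 0.95 in nESC, neither called.

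Among the demethylases the paralogs that remove methyl groups from lysine 4 also differed. Kdm5a had 78.2, 72.5 and 62.4 FPKM in EpiLC chromatin and 43.3, 41.0 and 37.6 in EpiLC nucleoplasm, against 6.79, 9.15 and 11.1 in EpiLC cytoplasm. Levels in nESC were 71.6, 74.4 and 73.5 FPKM in chromatin and 31.8, 32.5 and 35.1 in nucleoplasm, against 5.77, 8.64 and 6.98 in cytoplasm. The 3 fractions descended without overlap in both states, with a fold of chromatin over cytoplasm of 2.93 ± 0.15 in EpiLC (adjusted p = 1.45e-09) and 3.29 ± 0.11 in nESC (adjusted p = 1.17e-11). Kdm5b gave 0.53 in EpiLC, uncalled, and 1.25 in nESC, and the log2 ratio of Kdm5a to Kdm5b was larger in chromatin by 2.40 in EpiLC and 2.04 in nESC. Kdm6a, the X-linked enzyme that acts on lysine 27, was higher in chromatin by 2.27 in EpiLC and 3.07 in nESC. Kdm1a, the LSD1 enzyme, gave -0.93 in EpiLC and -0.12 in nESC, neither called; without EpiLC chromatin library 1 it was called lower, at -1.03.

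Both acetyltransferases were called higher in chromatin in both states, and neither deacetylase was at the deposited scaling. Ep300, a coactivator that acetylates histones at enhancers, had 86.4, 82.7 and 72.6 FPKM in EpiLC chromatin and 28.0, 30.0 and 32.5 in EpiLC nucleoplasm, against 10.1, 12.3 and 14.8 in EpiLC cytoplasm. In nESC it had 58.1, 56.8 and 45.4 FPKM in chromatin and 9.26, 10.2 and 8.68 in nucleoplasm, against 3.98, 4.08 and 4.46 in cytoplasm. No fraction overlapped another, and the fold of chromatin over cytoplasm was 2.66 ± 0.13 in EpiLC (adjusted p = 9.13e-10) and 3.52 ± 0.11 in nESC (adjusted p = 4.25e-12). Its paralog Crebbp gave 1.92 in EpiLC and 2.83 in nESC, both called.

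Hdac1, a deacetylase shared by the NuRD, Sin3 and CoREST complexes, was lower in chromatin. It had 28.5, 31.1 and 25.6 FPKM in EpiLC chromatin and 56.2, 55.0 and 55.7 in EpiLC nucleoplasm, against 92.4, 80.8 and 80.1 in EpiLC cytoplasm. Levels in nESC were 29.9, 31.3 and 28.7 FPKM in chromatin and 30.0, 29.4 and 30.4 in nucleoplasm, against 59.8, 62.8 and 60.9 in cytoplasm. The EpiLC nucleoplasm lay between the other fractions while the nESC nucleoplasm lay at the level of chromatin. The fold of chromatin over cytoplasm was -1.56 ± 0.09 in EpiLC (adjusted p = 4.65e-09) and -1.02 ± 0.06 in nESC (adjusted p = 3.25e-09), where the call was lost without chromatin library 3, at -0.99. Hdac2 gave -0.61 in EpiLC and -0.22 in nESC, neither called. Scaled to the same sum, the libraries placed Hdac2 higher in chromatin with a call, at 1.21 in EpiLC and 1.73 in nESC, and Hdac1 had the positive values given above.

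Nearly all of the Chd remodellers were higher in chromatin than in cytoplasm. In EpiLC 6 of 7 were called, against 29.1% of all genes, with a median of 2.55. In nESC 7 of 7 were, against 31.8%, with a median of 2.92. Chd9, a little-studied relative of Chd7 and Chd8, had 144, 107 and 79.1 FPKM in EpiLC chromatin and 42.6, 46.6 and 54.5 in EpiLC nucleoplasm, against 5.39, 4.42 and 6.77 in EpiLC cytoplasm. In nESC it had 20.8, 23.3 and 24.9 FPKM in chromatin and 6.22, 6.60 and 6.81 in nucleoplasm, against 0.361, 0.543 and 0.668 in cytoplasm. The fractions descended without overlap, and the fold of chromatin over cytoplasm was 4.17 ± 0.19 in EpiLC (adjusted p = 8.37e-10) and 4.53 ± 0.12 in nESC (adjusted p = 1.51e-12).

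Chd2, which is recruited to active genes, had 131, 117 and 109 FPKM in EpiLC chromatin and 22.4, 23.4 and 22.4 in EpiLC nucleoplasm, against 8.31, 7.88 and 9.69 in EpiLC cytoplasm. Its chromatin libraries stood far above both other fractions, with a fold over nucleoplasm of 2.36 ± 0.09 (adjusted p = 2.73e-09). Chd1, its paralog and an H3K4me3 reader needed for the open chromatin of embryonic stem cells, differed from it, since its chromatin over nucleoplasm gave 0.07 ± 0.17 in EpiLC and 0.38 ± 0.12 in nESC. Over cytoplasm Chd1 was higher in chromatin by 2.56 in EpiLC and 2.92 in nESC. Chd7, mutated in human CHARGE syndrome, gave 2.51 in EpiLC and 2.46 in nESC, and Chd8 gave 2.55 in EpiLC and 3.62 in nESC. Chd4, the ATPase of NuRD, was higher in chromatin by 1.23 in EpiLC and 2.64 in nESC, and its paralog Chd3 gave 0.95 in EpiLC, uncalled, and 2.09 in nESC. Chd3 was called in EpiLC without chromatin library 2, at 1.03, and without cytoplasm library 3, at 1.15.

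In the BAF complex, the SWI/SNF remodeller of embryonic stem cells, the subunits split. Smarcb1, a core subunit and human tumour suppressor, had 24.4, 25.4 and 23.4 FPKM in EpiLC chromatin and 90.3, 86.3 and 91.5 in EpiLC nucleoplasm, against 177, 164 and 156 in EpiLC cytoplasm. Levels in nESC were 25.7, 22.6 and 24.1 FPKM in chromatin and 63.8, 60.6 and 58.1 in nucleoplasm, against 165, 153 and 152 in cytoplasm. The fractions ascended without overlap from chromatin to cytoplasm in both states, with a fold of -2.74 ± 0.07 in EpiLC (adjusted p = 6.13e-11) and -2.68 ± 0.07 in nESC (adjusted p = 1.50e-12). Arid1a, the DNA-binding subunit that defines BAF, had 42.8, 43.1 and 32.4 FPKM in EpiLC chromatin and 31.1, 34.0 and 36.2 in EpiLC nucleoplasm, against 17.3, 15.7 and 15.5 in EpiLC cytoplasm. In nESC it had 14.9, 12.2 and 15.0 FPKM in chromatin and 6.42, 6.72 and 6.47 in nucleoplasm, against 3.34, 3.15 and 3.69 in cytoplasm. It was lowest in the cytoplasm of both states, with a fold of 1.25 ± 0.11 in EpiLC (adjusted p = 3.39e-07) and 1.90 ± 0.11 in nESC (adjusted p = 1.82e-09).

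Smarca4 (BRG1), the ATPase of BAF, was lower in EpiLC chromatin than in EpiLC cytoplasm by a log2 fold of -1.09 ± 0.11 (adjusted p = 8.35e-07), a call lost without chromatin library 3, at -0.95, and gave -0.60 in nESC, uncalled. Arid1b, the alternative to Arid1a, stood at the threshold with 1.00 in EpiLC, and its call was lost without chromatin library 2 or 3 or without cytoplasm library 1 or 3, at 0.92 to 0.99. It gave 0.86 in nESC, uncalled, where leaving out cytoplasm library 2 or 3 brought it to 1.12 or 1.00 and made the call. Smarcc1, a scaffold subunit, gave 0.82 in EpiLC, uncalled, and 1.35 in nESC.

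The other ATPases, Smarca5 (SNF2H of ISWI), Atrx, which deposits histone H3.3 with Daxx, and Ino80, were called higher in chromatin than in cytoplasm in both states. Atrx had 341, 155 and 135 FPKM in EpiLC chromatin and 127, 146 and 157 in EpiLC nucleoplasm, against 13.3, 12.7 and 15.6 in EpiLC cytoplasm. Levels in nESC were 220, 299 and 326 FPKM in chromatin and 84.0, 89.3 and 91.5 in nucleoplasm, against 7.23, 6.76 and 4.96 in cytoplasm. A single EpiLC chromatin library lay above the others, and the EpiLC nuclear fractions overlapped, whereas the 3 nESC fractions did not. The fold of chromatin over cytoplasm was 3.75 ± 0.26 in EpiLC (adjusted p = 2.73e-08) and 5.37 ± 0.14 in nESC (adjusted p = 1.43e-12). Smarca5 gave 2.32 in EpiLC and 3.11 in nESC, and Ino80 gave 2.32 in EpiLC and 2.64 in nESC.

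At the deposited scaling all 5 genes of cohesin with Ctcf had their highest mean in the nucleoplasm in EpiLC, and 3 of 5 in nESC, but with libraries scaled to the same sum only 3 of 5 did in EpiLC (Smc1a, Smc3 and Rad21) and 0 of 5 in nESC, the others being highest in chromatin. Stag2, the X-linked subunit that joins the ring to chromatin, had 350, 234 and 257 FPKM in EpiLC chromatin and 488, 411 and 427 in EpiLC nucleoplasm, against 22.4, 20.6 and 29.3 in EpiLC cytoplasm. In nESC it had 77.0, 47.1 and 45.3 FPKM in chromatin and 62.1, 44.9 and 54.9 in nucleoplasm, against 1.83, 5.34 and 6.79 in cytoplasm. Its nuclear libraries all lay above its cytoplasm libraries, with a fold of nucleoplasm over cytoplasm of 4.18 ± 0.16 in EpiLC (adjusted p = 1.06e-08) and 3.54 ± 0.33 in nESC (adjusted p = 5.44e-07). The fold of chromatin over cytoplasm was 3.51 ± 0.16 in EpiLC and 3.58 ± 0.33 in nESC, both called.

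Smc3, an ATPase of the ring, had 55.4, 32.9 and 25.2 FPKM in EpiLC chromatin and 83.2, 81.2 and 83.0 in EpiLC nucleoplasm, against 5.27, 4.74 and 8.04 in EpiLC cytoplasm. Its nucleoplasm was the highest fraction without overlap, and its fold of nucleoplasm over cytoplasm was 3.70 ± 0.24 in EpiLC and 3.36 ± 0.16 in nESC, both called. Its partner Smc1a gave 3.41 in EpiLC and 3.20 in nESC in the same comparison. Rad21, the subunit that closes the ring, gave 1.50 in EpiLC and 1.01 in nESC, and the nESC call was lost without cytoplasm library 1, at 0.93, or nucleoplasm library 3, at 0.95. Ctcf gave 0.67 in EpiLC and 0.61 in nESC, neither called. So 4 of the 5 genes were called higher in nucleoplasm in both states, against 20.1% of all genes in EpiLC and 20.5% in nESC.

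**Figure D2:**
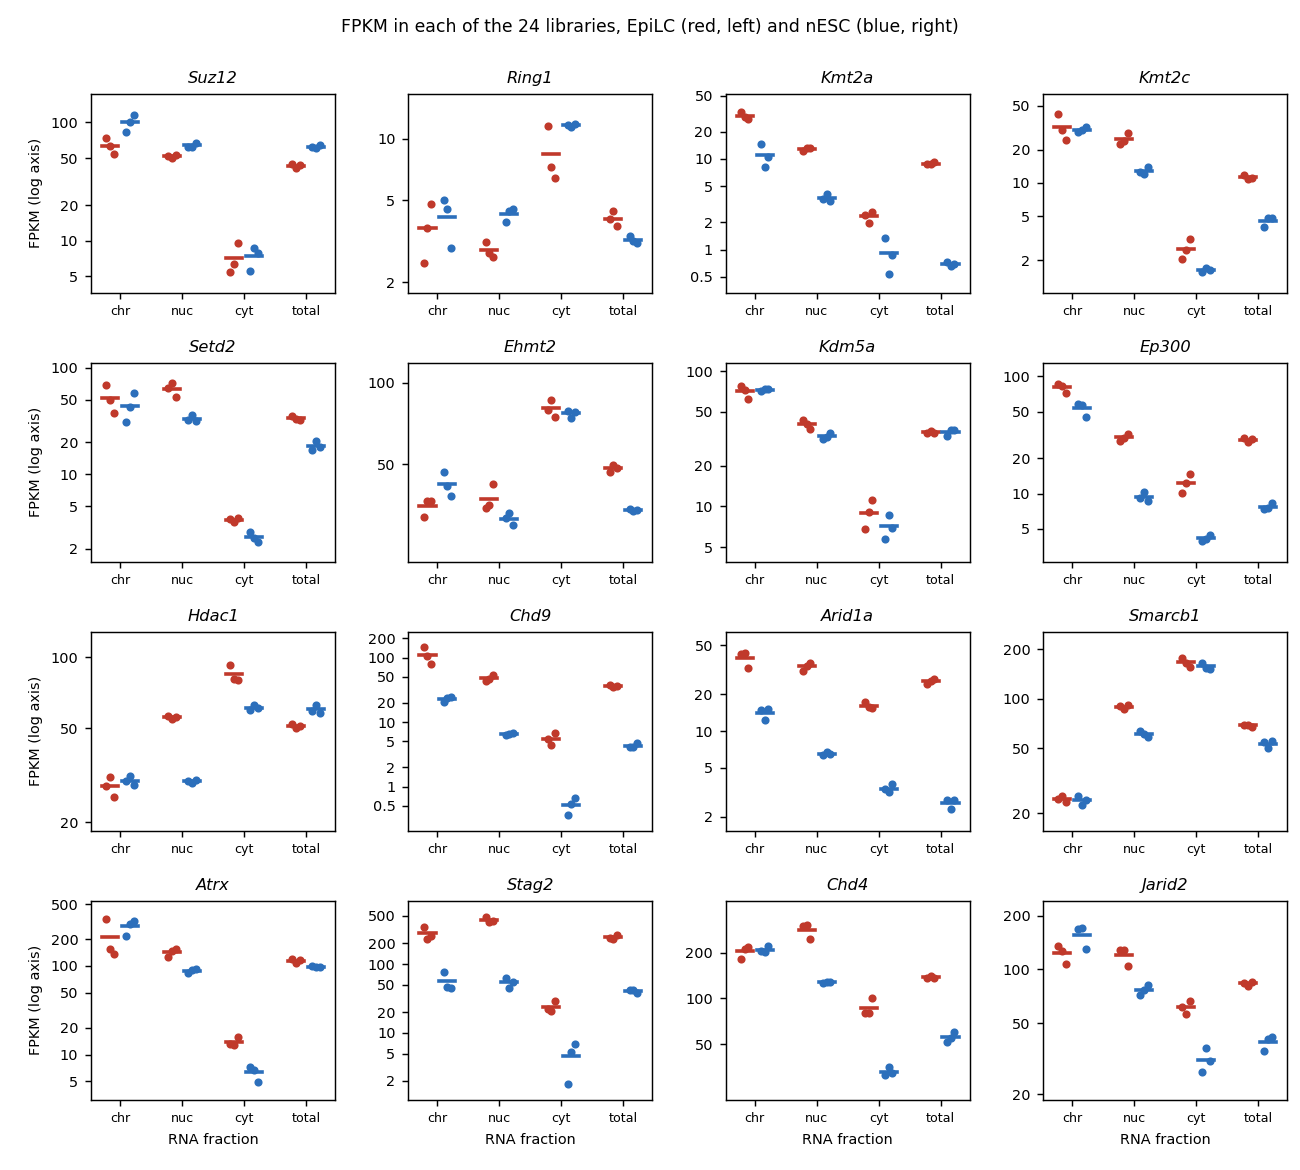
FPKM on a log axis in each of the 24 libraries for 16 of the genes, by chromatin (chr), nucleoplasm (nuc), cytoplasm (cyt) and total RNA, with EpiLC in red at the left, nESC in blue at the right and bars at the mean of 3 libraries. Smarcb1, Hdac1, Ehmt2 and Ring1 have, at the deposited scaling, their highest points in the cytoplasm, and the other 12 have their lowest mean of the 3 fractions there, total RNA set aside.

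Between the 2 nuclear fractions fewer of the genes were called in EpiLC than against the cytoplasm. The share called lower there, 15.2%, lay near that of all genes. In EpiLC 5 of 46 genes were higher in chromatin than in nucleoplasm (Kmt2a, Setd1b, Ep300, Chd2 and Chd9), against 16.0% of genes, and 7 were lower (Rnf2, Hdac2, Smarca4, Smarcb1, Smc1a, Smc3 and Rad21), against 16.7%. In nESC 13 of 45 were higher, against 17.4%, and 1, Smarcb1, was lower, against 17.3%. Kmt2a, Ep300, Chd2 and Chd9 were called higher in both states, and Chd9 lost its EpiLC call without chromatin library 1, at 0.94. The other 9 in nESC were Jarid2, Kmt2c, Setd1a, Kdm5a, Kdm6a, Chd8, Arid1a, Atrx and Ino80. Of these, leaving out single libraries took Jarid2 to 0.94, Setd1a to 0.94, Arid1a to 0.99 and Ino80 to 0.98 at the lowest, without a call. Libraries of the 2 nuclear fractions did not overlap for 29 of 46 genes in EpiLC, against 72.2% of genes, and for 34 of 45 in nESC, against 77.4%. With libraries scaled to the same sum 17 of 46 genes were higher in EpiLC, against 37.5% of all genes, and 1 was lower, against 3.91%. In nESC 29 of 45 were then higher, against 38.6%, and 0 lower, against 7.31%, and the median of all genes stood at 0.69 in both states.

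Of the 5 genes of cohesin with Ctcf, 3 were lower in EpiLC chromatin than in EpiLC nucleoplasm, against 16.7% of all genes. Their folds were -1.04 ± 0.24 for Smc1a (adjusted p = 0.00175, limma), -1.19 ± 0.24 for Smc3 (adjusted p = 0.000709) and -1.09 ± 0.13 for Rad21 (adjusted p = 8.70e-06). All 3 calls were lost without EpiLC chromatin library 3, at -0.95 for Smc1a, -0.94 for Smc3 and -0.97 for Rad21, which took the count of lower genes among the 46 to 4, and Smc1a also lost its call without chromatin library 2 or nucleoplasm library 1. With libraries scaled to the same sum none of the 3 was called, at -0.24 for Smc1a, -0.40 for Smc3 and -0.29 for Rad21. In nESC the same genes gave -0.45, -0.37 and -0.27, none called, with positive values of 0.25, 0.33 and 0.43 after that scaling, and whether the states differ in this comparison was not tested. Rnf2 had 21.3, 19.0 and 18.5 FPKM in EpiLC chromatin, against 44.8, 39.9 and 42.9 in EpiLC nucleoplasm, and Hdac2 had 42.9, 41.5 and 37.3 FPKM in EpiLC chromatin, against 100, 92.9 and 94.6 in EpiLC nucleoplasm. Neither gene overlapped between the fractions, and their folds were -1.10 ± 0.12 for Rnf2 (adjusted p = 3.77e-06, limma) and -1.23 ± 0.12 for Hdac2 (adjusted p = 1.87e-06). With libraries scaled to the same sum only 1 of 46 genes was lower in this comparison, so these calls did not both hold. The largest fold towards chromatin in nESC was that of Ep300 at 2.44 ± 0.11 (adjusted p = 6.65e-10), followed by Chd9 at 1.73, Chd2 at 1.69, Chd8 at 1.68 and Atrx at 1.65. Kdm6a was the foremost demethylase with 27.2, 35.6 and 35.5 FPKM in nESC chromatin, against 14.5, 13.6 and 13.8 in nESC nucleoplasm, a fold of 1.19 ± 0.13 (adjusted p = 2.13e-06) without overlap.

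**Figure D3:**
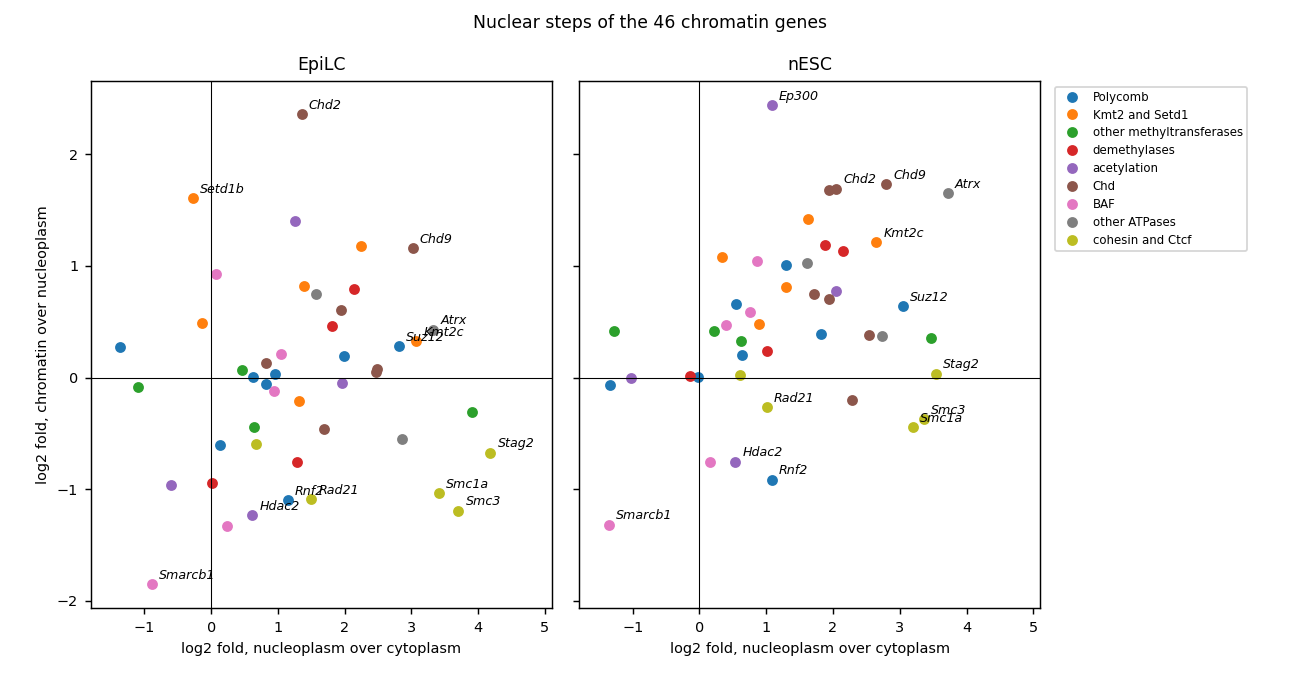
Log2 fold of chromatin over nucleoplasm on the vertical axis against log2 fold of nucleoplasm over cytoplasm on the horizontal axis, 1 point for each gene, coloured by set, for EpiLC at the left and nESC at the right. Both axes use the nucleoplasm libraries, so the slope is no result; Smc1a, Smc3 and Stag2 lie far to the right, at 3.20 to 4.18, and Chd2 and Ep300 lie high, at 1.40 to 2.44.

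Whether the distribution between chromatin and cytoplasm differs between the states was tested as a difference of the folds, EpiLC minus nESC, after each library was centred on its median. None of 45 genes was higher by this measure, against 4.78% of 11704 genes tested, and 4 were lower, against 4.14%. They were Atrx at -1.52 ± 0.39 (adjusted p = 0.0154, limma), Chd4 at -1.31 ± 0.16 (adjusted p = 0.000289), Jarid2 at -1.22 ± 0.20 (adjusted p = 0.00119) and Chd3 at -1.04 ± 0.27 (adjusted p = 0.0174). The median of the 45 genes was -0.35, against -0.02 over all genes tested. It was -0.11 without the EpiLC chromatin and cytoplasm libraries numbered 3.

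In all 4 genes the chromatin libraries overlapped between the states, and the EpiLC cytoplasm libraries lay wholly above those of nESC. Chd4 had 183, 212 and 218 FPKM in EpiLC chromatin and 80.2, 80.1 and 100 in EpiLC cytoplasm, against 205, 202 and 220 in nESC chromatin and 31.5, 35.5 and 32.5 in nESC cytoplasm. Jarid2 had 135, 127 and 107 FPKM in EpiLC chromatin and 61.4, 56.5 and 66.8 in EpiLC cytoplasm, against 168, 170 and 130 in nESC chromatin and 26.6, 36.2 and 30.6 in nESC cytoplasm. Chd3 had 6.42, 5.48 and 6.64 FPKM in EpiLC chromatin and 2.10, 2.96 and 4.05 in EpiLC cytoplasm, against 7.71, 5.36 and 6.70 in nESC chromatin and 1.12, 1.25 and 1.09 in nESC cytoplasm. The values of Atrx are given above. The call for Chd3 was lost without EpiLC chromatin library 2, at -0.96, without EpiLC cytoplasm library 3, at -0.86, and without nESC chromatin library 1, at -0.93. Atrx, Chd4 and Jarid2 kept their calls with any library left out, at -1.28 to -1.91 for Atrx, -1.21 to -1.37 for Chd4 and -1.13 to -1.35 for Jarid2.

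The level of each gene was also set beside itself in the other state. The EpiLC and nESC tables were normalized separately, so these values carry no test, and a gene is counted here where its means differ at least 2-fold and its 3 EpiLC libraries do not overlap its 3 nESC libraries. In chromatin 8 of 46 genes were higher in EpiLC, against 11.4% of genes, and 1 was lower, against 9.23%. In nucleoplasm 16 of 45 were higher, against 13.8%, and 0 lower, against 12.5%. In cytoplasm 17 of 46 were higher, against 13.4%, and 0 lower, against 11.4%. In total RNA 19 of 46 were higher, against 16.3%, and 3 were lower, against 12.5%. The median log2 difference of the listed genes was 0.11 in chromatin, 0.71 in nucleoplasm, 0.61 in cytoplasm and 0.60 in total RNA, against 0.00, 0.12, 0.12 and -0.01 over all genes.

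By that rule 7 genes were higher in EpiLC in all 4 kinds of RNA, namely Kmt2a, Kmt2d, Ehmt1, Chd9, Smarcc1, Arid1a and Stag2. The share of all genes that met the rule in all 4 kinds is not given here, so the count of 7 has no background beside it. For Kmt2a the cytoplasm difference of 1.03 lay at the mark and fell short of it without nESC cytoplasm library 2, at 0.83, without EpiLC cytoplasm library 3, at 0.97, with libraries centred on their medians, at 0.98, and with a pseudocount of 1, at 0.81. Stag2 averaged 280 FPKM in EpiLC chromatin and 442 in EpiLC nucleoplasm, against 56.5 in nESC chromatin and 53.9 in nESC nucleoplasm, and its difference was 2.32 to 3.03 on the log2 scale over the 4 kinds. Chd9 differed by 2.20 to 2.93, Arid1a by 1.45 to 3.07, Ehmt1 by 1.55 to 1.90, Kmt2d by 1.40 to 2.47, Kmt2a by 1.03 to 2.97 and Smarcc1 by 1.13 to 1.84. For Ehmt1 the total libraries had 52.9, 49.4 and 50.7 FPKM in EpiLC, against 14.1, 14.8 and 14.7 in nESC, whereas those of its partner Ehmt2 had 47.0, 49.9 and 48.4 FPKM in EpiLC, against 34.2, 33.6 and 33.9 in nESC. The 2 messages lay at similar FPKM in EpiLC total RNA, with a log2 ratio of Ehmt1 to Ehmt2 of 0.07, against -1.19 in nESC total RNA.

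The sets differed in this comparison. All 6 Kmt2 and Setd1 genes were higher at least 2-fold in EpiLC total RNA, against 16.3% of all genes, with a median of 1.80. In chromatin 3 of 6 were, against 11.4%, with a median of 0.97. Kmt2a had 8.70, 8.71 and 9.18 FPKM in EpiLC total RNA, against 0.736, 0.651 and 0.701 in nESC total RNA, a log2 difference of 2.97, while in chromatin the difference was 1.42. Of the 5 BAF genes 4 were higher in EpiLC total RNA, with a median of 1.38; the exception, Smarcb1, differed by 0.37. Of the acetylation genes Ep300 and Crebbp were higher in total RNA, by 1.84 and 2.39, while Hdac1 and Hdac2 differed by -0.23 and -0.59. None of the 4 demethylases passed the rule in any kind of RNA, with differences between -0.43 and 0.71. Across the 46 genes the total RNA difference correlated with log2 exonic length at Pearson's r of 0.59, against 0.14 across all genes. With the percentage of G and C r was 0.42, against 0.11. These levels were not corrected for length or base composition. For Kmt2b, Smarca4 and Arid1a the nESC total libraries also lay below all nESC fraction libraries.

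Polycomb genes went both ways. In total RNA Jarid2 was higher in EpiLC by 1.09, and Eed, Mtf2 and Rnf2 were lower by -1.03, -1.09 and -1.10. Eed had 90.9, 82.9 and 88.1 FPKM in EpiLC total RNA, against 183, 180 and 174 in nESC total RNA, and it was also lower in chromatin, by -1.02, a difference that lost the 2-fold mark without EpiLC chromatin library 2 or 3 or nESC chromatin library 3. Rnf2 had 36.5, 37.8 and 36.3 FPKM in EpiLC total RNA, against 77.0, 82.8 and 79.2 in nESC total RNA, but its chromatin and cytoplasm libraries overlapped between the states. The 5 genes Eed, Suz12, Mtf2, Rnf2 and Setdb1 had a negative difference in all 4 kinds of RNA, and 22 had a positive one. Shares of all genes with 1 sign in all 4 kinds are not given here. With libraries scaled to the same sum the lower genes of total RNA gave -0.81 for Eed, -0.87 for Mtf2 and -0.88 for Rnf2, short of 2-fold, and the median of all genes moved to 0.20.

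**Figure D4:**
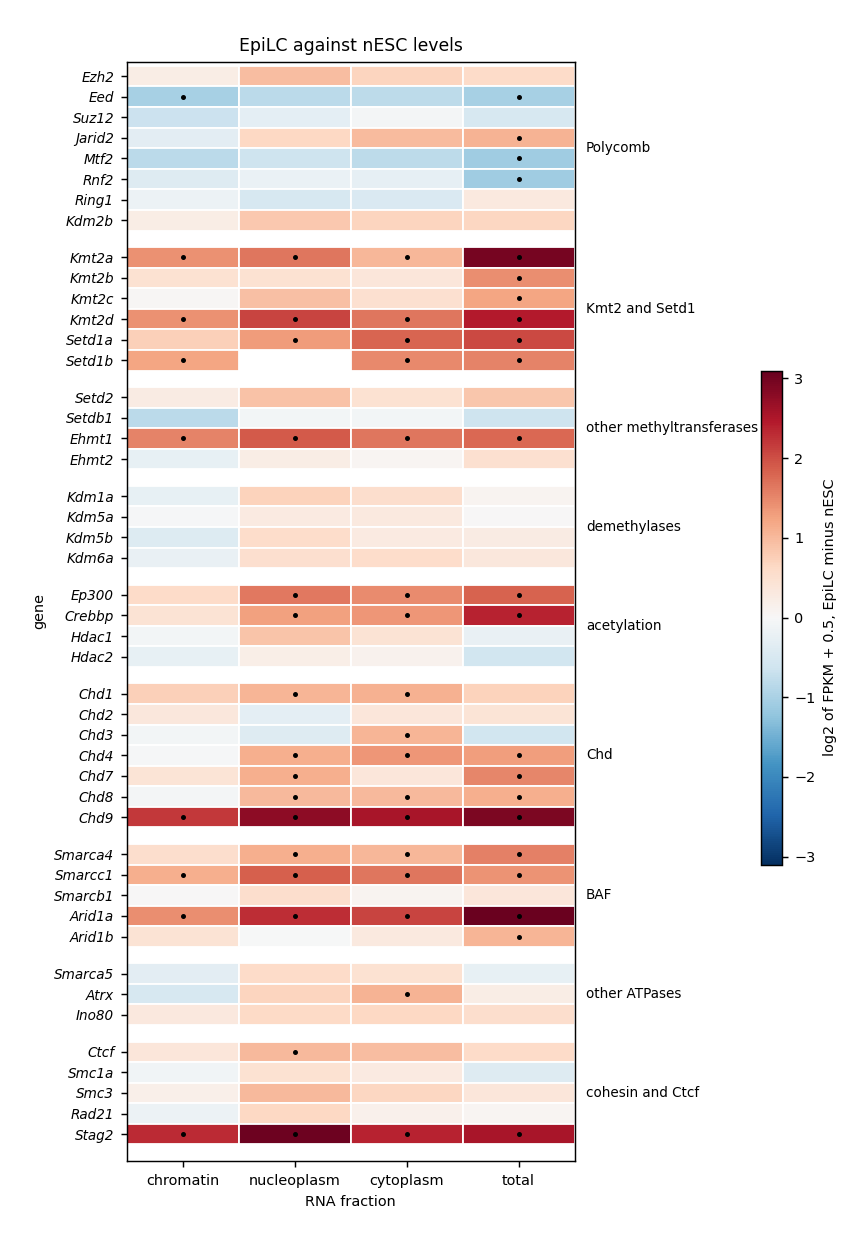
Difference of log2 FPKM + 0.5, EpiLC minus nESC, for each gene in chromatin, nucleoplasm, cytoplasm and total RNA, red where EpiLC is higher and blue where it is lower, with dots where the difference is at least 2-fold and the 3 against 3 libraries do not overlap. Rows of Kmt2a (at 1.03 in cytoplasm, the mark itself being lost without single libraries), Kmt2d, Ehmt1, Chd9, Smarcc1, Arid1a and Stag2 are dotted throughout, dots on blue cells occur only in Polycomb genes (and none of these reaches 2-fold with libraries scaled to the same sum), and the empty cell is Setd1b in nucleoplasm, which averaged under 1 FPKM.

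Total RNA did not always lie within the range of the fractions in nESC. For Kdm2b, Kmt2b, Smarca4 and Arid1a all 3 nESC total libraries lay below all 9 nESC fraction libraries, as for 10.4% of genes, and for Rnf2, Kdm1a, Hdac2, Smarca5, Ctcf and Smc1a they lay above all 9, as for 8.72%. Arid1a had 2.75, 2.31 and 2.75 FPKM in nESC total RNA although its lowest fraction library had 3.15 FPKM. In EpiLC 0 of 46 genes lay below all fraction libraries, against 4.14% of genes, and 1, Hdac2, lay above them, against 1.82%.

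Transcript length and base composition moved with the fold. The exonic length of the listed genes had a median of 8194.5 bases, against 4185 over all genes tested in EpiLC. Across the 46 genes the log2 exonic length correlated with the EpiLC fold of chromatin over cytoplasm with Pearson's r of 0.58, against 0.37 across all genes, and in nESC with r of 0.60 across 45 genes, against 0.40. The percentage of G and C of the longest transcript correlated with r of -0.40 in both states. Across all genes r was much the same, at -0.39 in EpiLC and -0.40 in nESC. These are descriptions across genes, which share libraries and are not independent replicates.

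After each library was corrected for exonic length and base composition, 18 of 46 genes were higher in EpiLC chromatin than in cytoplasm, against 23.2% of all genes, and 4 were lower, against 23.0%, with a median of 0.66. In nESC 26 of 45 were higher, against 25.8%, and 3 were lower, against 23.8%, with a median of 1.22. The 8 genes that lost a higher call in EpiLC were Mtf2, Kmt2d, Setd1b, Kdm6a, Arid1a, Arid1b, Smarca5 and Atrx, and the 5 in nESC were Ezh2, Mtf2, Kmt2d, Kdm5b and Smarcc1. Lower calls were lost for Ring1, Ehmt2 and Smarca4 in EpiLC and for Ring1 and Hdac1 in nESC. The Chd set kept 6 calls of 7 in EpiLC and 7 of 7 in nESC, and Smarcb1 stayed lowest at -3.06 in EpiLC and -3.16 in nESC. Atrx, one of the longest messages, fell to 0.64 in EpiLC and lost its call there, and stood at 1.84 in nESC. Rnf2 was called lower after correction, at -1.13 in EpiLC and -1.11 in nESC, and Hdac2 at -1.38 and -1.04. The 4 differences between the states held after correction, at -1.21 for Atrx, -1.20 for Chd4, -1.05 for Jarid2 and -1.0 for Chd3. For chromatin over nucleoplasm in nESC only 2 of the 13 higher genes remained, Ep300 at 1.87 and Chd2 at 1.08, against 15.2% of all genes called higher.

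**Figure D5:**
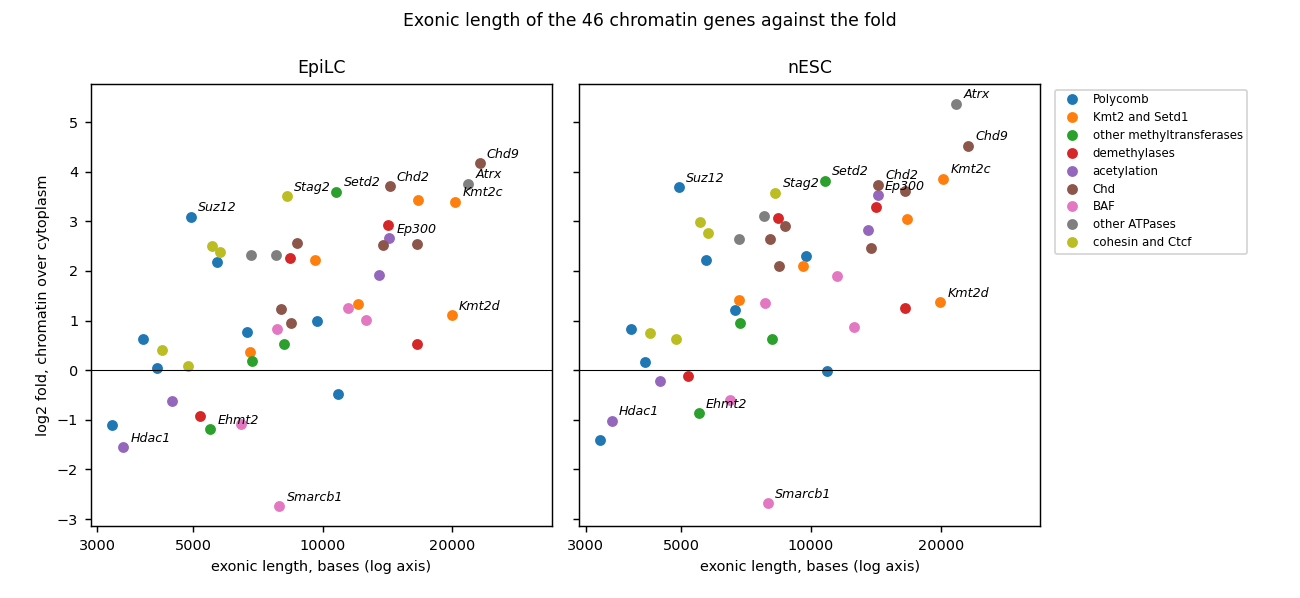
Log2 fold of chromatin over cytoplasm against exonic length in bases on a log axis, 1 point for each gene, coloured by set, with EpiLC at the left and nESC at the right. Longer genes such as Atrx, Chd9 and Kmt2c lie high, and Kmt2d and Smarcb1 lie well below genes of like length.

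A second list held 147 other subunits and relatives of the same complexes. Against cytoplasm 53 of 144 tested (36.8%) were higher in EpiLC chromatin, against 29.1% of all genes, and 41 (28.5%) were lower, against 28.4%, with a median of 0.36. In nESC chromatin 63 of 143 (44.1%) were higher, against 31.8%, and 30 (21.0%) were lower, against 29.7%, with a median of 0.54. The lower partners in EpiLC were thus as frequent as among all genes. The cohesin partner set also counted Smc5 and Smc6, which form a complex of their own. Its genes resembled Stag2, Smc1a and Smc3, with 9 of 11 higher in chromatin in both states. Rad21 and Ctcf, of the same listed set as those genes, were called in neither state. The medians of the cohesin partner set were 2.98 in EpiLC and 3.16 in nESC. Nipbl, the cohesin loader, gave 3.76 in EpiLC and 4.61 in nESC, and in nucleoplasm over cytoplasm 4.15 in EpiLC and 4.13 in nESC. Other lysine methyltransferases and demethylases had 14 of 24 higher and 0 lower in EpiLC and 15 of 23 higher and 1 lower in nESC, led by Ash1l at 4.07 in EpiLC and 4.18 in nESC.

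The other partner sets held genes called in both directions, and no test compared the sets. Of all genes tested 29.1% were higher and 28.4% lower in EpiLC chromatin, and 31.8% and 29.7% in nESC chromatin. Several of the counts below lie near these shares. Among H3K4 methyltransferase partners 2 of 12 were higher and 5 lower in EpiLC chromatin, and 4 were higher and 3 lower in nESC chromatin. Dpy30, a small subunit common to all Kmt2 and Setd1 complexes, gave -2.73 in EpiLC and -2.99 in nESC, whereas the Kmt2 and Setd1 enzymes tested all had positive folds. The Chd and NuRD partners had 2 of 9 higher (22.2%) and 6 lower (66.7%) in EpiLC, and 2 higher and 3 lower (33.3%) in nESC. The share lower in nESC lay near that of all genes. None of the Chd genes themselves was called lower in either state. The BAF partners had 5 of 18 higher and 7 lower in EpiLC and 4 of 17 higher and 5 lower in nESC, with Pbrm1, the PBAF bromodomain subunit, at 3.85 in EpiLC and 4.38 in nESC and Bcl7c at -2.98 in EpiLC and -3.18 in nESC. Polycomb partners had 5 of 26 higher and 8 lower in EpiLC and 8 of 27 higher and 6 lower in nESC. The acetylation partners had 6 of 20 higher and 5 lower in EpiLC and 9 higher and 4 lower in nESC. The partners of other remodellers had 10 of 24 higher and 9 lower in EpiLC and 12 higher and 7 lower in nESC, with the ATPase Ruvbl1 at -2.73 in EpiLC chromatin against cytoplasm and -2.26 against nucleoplasm. In the difference between the states 2 of 142 partners were higher, Smarcd3 at 2.54 and Hdac5 at 1.13, against 4.78% of all genes, and 9 were lower, against 4.14%, among them Hcfc1 at -1.39, Actl6a at -1.19, Bcor at -1.15 and Asxl1 at -1.10.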

How the data were processed

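RNA of 3 subcellular fractions and of whole cells was sequenced in 24 libraries, 3 for each of 8 groups. The authors deposited FPKM for each gene; the submitters' processing notes name TopHat2, Cuffnorm and the builds mm10 and GRCm38. Tool versions, annotation, library normalization and use of strand: not given in the sources used here. The EpiLC and nESC tables were normalized separately by the authors, so levels between them carry no test. Reads from overlapping or antisense genes cannot be told apart here.

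Values were analysed as log2(FPKM + 0.5), so fold changes of low genes are understated. Genes whose 12 libraries averaged 1 FPKM or more were fitted with limma 3.58.1 in R 4.3.3 (trended variance, two-sided, Benjamini-Hochberg adjustment over all genes tested), and called at an adjusted p below 0.05 and a fold of at least 2. The difference between states was fitted on the 12 chromatin and cytoplasm libraries of both states, each centred on its median. The fits were tested on simulated data. Depth was estimated from the steps between low FPKM values. Steps were picked for a high share of low values within 0.1 of a whole number of fragments. The resulting shares of 80.4% to 90.6% are therefore no check of the estimate. Precision is limited by 3 libraries a group.

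The 46 genes, the sets and the 147 partners (of 148 listed) were chosen with earlier results of these data known. All 46 are named; values in every library are given for the called gene with the largest fold in each direction of each set, and for a few others. Partners are named where their folds were the largest. Alternatives were other pseudocounts, filters and scalings, the replicate block, single libraries left out, isolated zeros taken as missing, and a correction for exonic length and base composition. Same-numbered libraries correlated at -0.219 to 0.177 in their deviations from group means, over 0.1 in 2 of 18 cases, so the numbers were not taken to pair them.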

Additional observations from a re-analysis of the deposited data

Results flagged for a closer look

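The difference between the states in the log2 fold of chromatin over cytoplasm (EpiLC minus nESC) passed the test for 4 genes (limma, adjusted over all genes tested). It was -1.517 for Atrx, whose fold was 3.75 in EpiLC and 5.37 in nESC. It was -1.307 for Chd4, with folds of 1.23 in EpiLC and 2.64 in nESC. It was -1.223 for Jarid2, with folds of 0.99 in EpiLC and 2.31 in nESC. It was -1.042 for Chd3, with folds of 0.95 in EpiLC and 2.09 in nESC.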

How the results depend on the processing

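With libraries scaled to the same sum, genes called higher numbered 40 in EpiLC chromatin against cytoplasm, 17 in EpiLC and 29 in nESC chromatin against nucleoplasm, and 41 in nESC nucleoplasm against cytoplasm. Genes called lower then numbered 1 in EpiLC chromatin against nucleoplasm and 0 in the other 5 comparisons, and genes lower in EpiLC numbered 0 in chromatin and in total RNA. Folds of chromatin over cytoplasm turned positive in EpiLC for Ring1 (0.58), Kdm2b (1.35), Ehmt2 (0.64), Hdac1 (0.26), Hdac2 (1.21) and Smarca4 (0.73), and in nESC for Ring1 (0.43), Kdm2b (1.93), Ehmt2 (1.09), Kdm1a (1.84), Hdac1 (0.93), Hdac2 (1.73) and Smarca4 (1.34). Folds of nESC nucleoplasm over cytoplasm turned positive for Kdm2b (1.22), Kdm1a (1.12) and Hdac1 (0.23). After correction for length and base composition, 17 of 46 genes were higher and 1 lower in EpiLC nucleoplasm against cytoplasm. Over all 12805 genes tested, 1813 were higher and 1472 lower there. In nESC nucleoplasm against cytoplasm 1 of 45 was lower, against 1378 of all 12562 genes tested. In EpiLC chromatin against nucleoplasm 2 of 46 were higher, against 14.7% of all genes. In nESC chromatin against nucleoplasm 2 of 45 were higher and 2 lower, against 15.2% and 15.4%. Folds of chromatin over cytoplasm turned negative for Rnf2 (-1.13 in EpiLC, -1.11 in nESC), Kmt2d (-0.18 in EpiLC, -0.13 in nESC) and Kdm5b (-0.47 in nESC), and that of EpiLC nucleoplasm over cytoplasm for Rnf2 (-0.030). A filter at a mean of 5 FPKM left 1 gene lower in EpiLC nucleoplasm against cytoplasm and 11 higher in EpiLC cytoplasm against nESC cytoplasm. Without both EpiLC libraries numbered 3, 4 genes were lower in EpiLC chromatin against nucleoplasm. With single libraries left out, lower genes numbered 4 to 8 in EpiLC and 1 to 2 in nESC chromatin against nucleoplasm, and 0 to 2 in EpiLC against nESC chromatin. The cause was not tested beyond the construction of each setting, and sign changes between values that were never called are not listed. With the replicate block, 26 genes were higher and 5 lower in EpiLC chromatin against cytoplasm, and the counts of the other comparisons stayed as given too. Depth estimates were lowest in cytoplasm, where several of the messages averaged under 3 FPKM.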
